A study of Mus musculus with 12 samples.

Results

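Regnase-1 loss was examined in natural killer (NK) cells stimulated with interleukins 12 and 18, by comparing chromatin accessibility in 3 knockout stimulated libraries (KO_Sti) with that in 3 wild-type stimulated libraries (WT_Sti), 6 of the 12 libraries of the study. ATAC-seq marks open chromatin with a transposase, which cuts accessible DNA and tags it for sequencing. All cells were NK cells from mouse spleen, with 100000 cells per library. The wild-type libraries came from Reg-1fl/fl cells, which carry floxed Regnase-1 alleles, and the knockout libraries from Reg-1ΔNK cells, in which Regnase-1 is deleted in NK cells. The sources used here do not name the driver of the deletion, the age of the mice, or the dose and duration of the cytokines. The other 6 libraries, 3 wild-type (WT_Ctl) and 3 knockout (KO_Ctl), came from cells labelled control, with no IL-12/18. They are used below to show how the same regions stood without cytokines. They also enter the merge that sets the regions and a test of whether the genotype difference changed with stimulation. The labels do not say whether replicates came from separate mice, so p-values measure only the spread between these libraries, which may be technical.

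Regnase-1, encoded by Zc3h12a, is an RNase that cuts stem-loops in the messenger RNAs of inflammatory genes such as Il6 and so limits their translation and lifetime. IL-12 acts through JAK kinases and STAT4, and IL-18 acts through MyD88, IRAK kinases and NF-kB. Together they drive NK cells to release interferon gamma. Regnase-1 acts on RNA and not on DNA, so an ATAC-seq comparison reads the chromatin of cells that have lived without it.

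Irak3, which encodes IRAK-M, an inhibitor of IRAK signalling downstream of MyD88, carried the strongest region open in KO_Sti without a peak in WT_Sti. Its gene body and start held more and stronger accessible regions in every KO_Sti library than in any WT_Sti library. That count includes 2 regions that separate the groups by definition. Regions at Il6, Tigit, Ikzf2 and Bcl2 also took a higher rank in KO_Sti libraries. The rank test called 58 regions with all 6 libraries, and 0 with any library other than KO_Sti replicate 1 left out. With KO_Sti replicate 1 left out, it called 2446 regions, with 5.3% of all ranked regions lower and 3.26% higher. In that fit, lower calls made up 16.3% of the regions at cytotoxic granule genes and 16.2% at homing and integrin genes. Other lists were also above 5.3%, such as interferon-stimulated (13.6%), cytokine and chemokine (13.3%) and AP-1 and BATF genes (12.5%). Myeloid marker genes had 21.4%, which was 3 of 14 regions, all at Itgax, a gene also on the homing and integrin list. With all 6 libraries no listed gene had a lower call.

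The authors deposited 1 list of peak intervals per library. WT_Sti lists held 56434, 55146 and 63128 distinct intervals. KO_Sti replicates 2 and 3 held 42543 and 54303, and KO_Sti replicate 1, the shortest list, was 7433 intervals shorter than replicate 2. The means were 58236 ± 4285 (SD, n = 3) and 43985 ± 9677 (SD, n = 3), a difference of −14251, with every KO_Sti list shorter than every WT_Sti list (exact permutation test, two-sided, p = 0.1, the smallest that 3 against 3 allows). To set lists of unequal length beside each other, each library was reduced to its strongest intervals, as many as the list of KO_Sti replicate 1 holds. The weakest interval kept had a −log10 q of 16.6, 17.3 and 27.1 in the WT_Sti libraries but 1.31, 4.60 and 13.2 in the KO_Sti libraries. KO_Sti replicate 1 stood apart when the ranks of shared regions were turned into normal scores. Its scores correlated with those of the other 5 stimulated libraries at 0.807 to 0.828 (Pearson, across 28583 regions, which are not independent replicates). The correlations were 0.971 to 0.979 between WT_Sti libraries and 0.949 between the other KO_Sti libraries. Results that rest on it are given with and without it. Total read depth is unknown, because peak lists do not give it. Fewer cells with an open region and less accessibility per cell cannot be told apart in such bulk libraries.

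**Figure D1:**
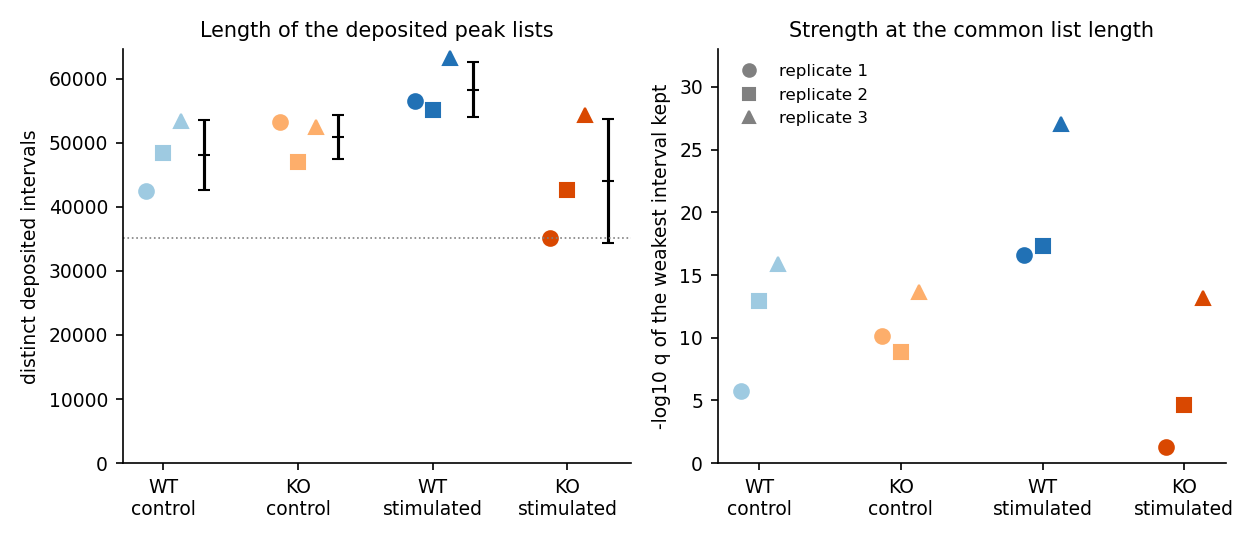
Left, distinct intervals in each deposited list by group, with the dotted line at the common length kept; right, −log10 q of the weakest interval kept at that length. Each symbol is 1 library, black bars are the mean ± SD of each group, and all 3 KO_Sti lists are shorter than the WT_Sti lists, with KO_Sti replicate 1 at the dotted line and at a −log10 q of 1.31.

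At Zc3h12a (chr4:125118414-125127881, mm10), a region at the gene's 3′ end, chr4:125117670-125118634, held a peak in 3 of 3 WT_Ctl and 3 of 3 WT_Sti libraries and in 0 of 3 KO_Ctl and 0 of 3 KO_Sti libraries. Its deposited folds over background were low in WT_Sti, at 3.35, 4.33 and 3.73. The labels do not say which exons the floxed allele removes. The promoter region of Zc3h12a was open in all 12 libraries, at percentile 98.2, 98.0 and 98.5 in WT_Sti and 99.4, 98.3 and 97.9 in KO_Sti. That 3′ end region was not among the 8 regions assigned to Zc3h12a. Those 8, the promoter region and 7 lying between genes upstream, were called in every stimulated library.

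Of 15 NK identity genes, regions summed to 53 in each WT_Sti library and to 45 to 52 in KO_Sti libraries, with no region at Nkg7. B cell marker genes had 9 to 11 regions called in WT_Sti and 7 to 10 in KO_Sti, T cell marker genes 14 and 15 to 16, myeloid marker genes 15 and 13 to 15, and erythroid marker genes 6 to 7 and 5 to 6. Within these marker lists, Cd79a, Cd79b, Ms4a1, Cd3g, Cd4, Cd8a, Cd8b1, Csf1r, Lyz2, Mpo and Gata1 were at 0 in all 12 libraries, while Pax5, Ebf1, Blk, Cd3e, Cd3d, Cd5, Cd6, Cd247, Cd14, Spi1, Cebpa, Cebpb, Itgax, Cd68, Klf1, Epor and Tal1 had a region in every library. The ubiquitous gene Tbp was at 0 too, so a 0 does not show that a cell type is absent. The part of other cell types in the results was not tested.

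The promoters of 3 genes are shown because a region over each start had a higher rank in KO_Sti libraries. Irak3 and Il6 were called with all 6 libraries, and Ptgs2, which encodes the prostaglandin synthase COX-2, without KO_Sti replicate 1. Il6 and Ptgs2 messenger RNAs are also reported Regnase-1 targets. Each sequence is the 250 bases before the start, from RefSeq (GRCm38.p6, the assembly behind mm10), written in the gene's direction. Capitals mark motif matches on either strand. The windows are Irak3 at chr10:120202131-120202380, minus strand, Il6 at chr5:30012864-30013113, plus strand, and Ptgs2 at chr1:150099781-150100030, plus strand.
Irak3: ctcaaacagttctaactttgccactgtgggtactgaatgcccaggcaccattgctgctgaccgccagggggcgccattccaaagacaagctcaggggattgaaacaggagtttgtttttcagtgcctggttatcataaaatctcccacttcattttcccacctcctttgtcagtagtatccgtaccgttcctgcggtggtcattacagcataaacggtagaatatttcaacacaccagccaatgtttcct
Il6: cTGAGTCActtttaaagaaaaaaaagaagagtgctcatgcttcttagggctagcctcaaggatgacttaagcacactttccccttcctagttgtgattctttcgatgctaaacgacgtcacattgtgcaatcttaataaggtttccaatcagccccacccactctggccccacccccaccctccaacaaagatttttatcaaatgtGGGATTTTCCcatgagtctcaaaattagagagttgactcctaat
Ptgs2: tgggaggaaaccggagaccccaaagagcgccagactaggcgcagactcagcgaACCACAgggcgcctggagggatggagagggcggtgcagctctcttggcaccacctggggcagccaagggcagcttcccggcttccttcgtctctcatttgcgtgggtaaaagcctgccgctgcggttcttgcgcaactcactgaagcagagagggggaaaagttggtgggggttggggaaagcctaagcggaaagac

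Motifs searched were the NF-kB motif, the AP-1 motif TGANTCA, the octamer ATGCAAAT, the STAT motif TTCNNNGAA and the RUNX motif TGTGGT, which were found in 7.91%, 6.13%, 1.58%, 6.58% and 12.4% of 21262 such promoter windows. None overlapped another in the printed windows. The Il6 window held an NF-kB motif from 44 to 35 bases before the start and TGANTCA from 249 to 243 bases before it. The Ptgs2 window held TGTGGT, read on the other strand, from 197 to 192 bases before the start. None of these letters occurred in the Irak3 window. A match is a run of letters and no measured binding.

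Merging the 12 reduced lists at 1 bp of overlap gave 45082 regions called in at least 2 libraries. Of these, 463 (1.03%) were called in 3 of 3 KO_Sti and 0 of 3 WT_Sti libraries and are named gained, and 771 (1.71%) had the opposite pattern and are named lost. Another 24892 were called in all 6 stimulated libraries. The same pattern between KO_Ctl and WT_Ctl libraries held for 516 regions (1.14%) called in KO_Ctl alone and 402 (0.892%) called in WT_Ctl alone. The count of 3 against 0 is the definition of these sets and carries no test.

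Most gained regions were weak rather than closed in WT_Sti cells. A deposited peak below the intervals kept was present in all 3 WT_Sti lists at 372 of the 463 gained regions, in 2 lists at 46, in 1 list at 24 and in no list at 21 (0.0466% of all regions). Of the 771 lost regions, 278 (0.617%) held no deposited peak in any KO_Sti list. A weaker peak stood in KO_Sti replicate 3 at 478 (62.0%) and in replicate 2 at 102 (13.2%), while replicate 1, whose whole list was used, could hold none.

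Control cells, which the definition did not use, leaned the same way. Gained regions were called in 31.5%, 24.8% and 23.8% of cases in the WT_Ctl libraries and in 43.4%, 46.0% and 43.4% in the KO_Ctl libraries. Lost regions were called in 35.4%, 43.3% and 45.4% in WT_Ctl and in 33.9%, 30.1% and 34.6% in KO_Ctl. Over all 45082 regions the control libraries of both genotypes ran from 73.0% to 75.2%. At gained and at lost regions the 3 WT_Ctl and 3 KO_Ctl libraries did not overlap (the smallest p of an exact permutation test would be 0.1). The Wilson 95% intervals of the gained shares were 20.1% to 35.9% over the WT_Ctl libraries and 39.0% to 50.6% over the KO_Ctl libraries, and they cover counting error only. At lost regions the intervals overlapped, with 32.1% to 38.8% in WT_Ctl replicate 1 and 31.4% to 38.1% in KO_Ctl replicate 3. A complete split in control cells too, 3 against 0, was seen at 31 gained regions in the same direction and 0 in the opposite, and at 26 lost regions in the same direction and 1 in the opposite.

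**Figure D2:**
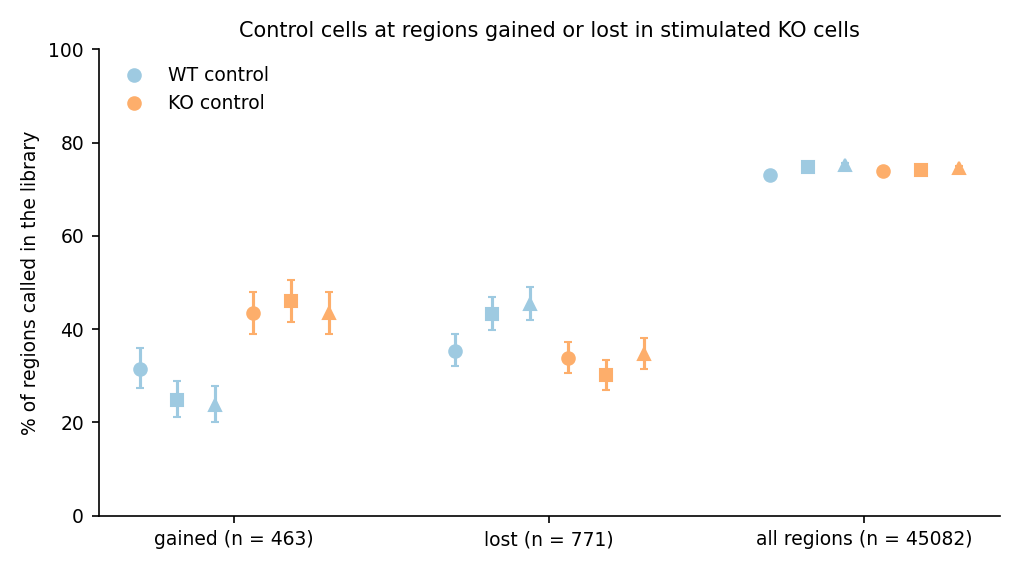
Share of gained, lost and all regions called in each control library, in percent, with 1 point per library and its Wilson 95% interval. At gained regions the 3 KO_Ctl libraries (43.4% to 46.0%) sit above the WT_Ctl libraries (23.8% to 31.5%), and at lost regions below them.

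Gained and lost regions lay away from gene starts. The window from 250 bases before to 50 bases after a RefSeq start was touched by 4.54% of gained and 1.82% of lost regions. It was touched by 32.0% of the regions called in all 6 libraries and by 20.3% of all 45082 regions. Gene bodies held 51.2%, 49.5% and 40.6% of the 3 sets, and the median widths were 952, 651 and 1639 bp. Over all regions these values were 46.4% and 1193 bp. The sets were not matched for peak strength. Gained regions were nearest to 375 protein-coding genes within 50 kb and lost regions to 613, of 14289 genes with any region, and 24 genes had both. A nearest gene is a position and not evidence of control.

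Irak3 carried the strongest gained region with no WT_Sti peak. The region chr10:120190562-120192471 in the gene body had deposited folds of 17.5, 12.7 and 29.7 in the KO_Sti libraries, where it ranked 7377, 13492 and 9136 among the kept intervals. It also held a peak in 3 of 3 KO_Ctl and 0 of 3 WT_Ctl libraries. Over the 8 regions of Irak3, WT_Ctl libraries called 2, 3 and 3, WT_Sti libraries 4, 4 and 4, KO_Ctl libraries 7, 6 and 6, and KO_Sti libraries 7, 7 and 7. The genotypes did not overlap in either treatment, but 2 of the 8 regions are gained and separate the stimulated groups by definition.

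The other 20 gained regions without a WT_Sti peak were weaker. The next by their worst KO_Sti rank lay near Cbfa2t2, a transcriptional corepressor, at ranks 16840, 25117 and 24679, and 9512 bp upstream of Dusp1, a phosphatase that switches off MAP kinases, at ranks 16749, 25707 and 23816. Regions in Phtf2, Hydin, Jade2, Afap1, Pik3cg, the catalytic subunit of PI3K gamma, and Tbxas1, thromboxane synthase, and 1 region on chromosome 1 over 50 kb from any gene complete the 10 strongest. Of the 21, 17 held a peak in at least 1 KO_Ctl library, 13 of them in all 3, and 2 held a peak in a WT_Ctl library. Pik3cg and Tbxas1 were among the 4 with no peak in any control library.

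The strongest lost regions without a KO_Sti peak were in or near Tmprss3, a membrane serine protease, at WT_Sti ranks 17977, 20654 and 20439, Kmt2c, a histone methyltransferase, Rab30, Raet1d, a stress ligand of the NK receptor NKG2D, Lrrc27, Uhmk1, Mycbp2 and Apbb1ip, with 1 on chromosome 2 far from genes. The region 41650 bp upstream of Cblb, a ubiquitin ligase that restrains lymphocyte activation, ranked 23969, 23390 and 23522 in WT_Sti and held no peak in any control library. In control cells, 162 of the 278 lost regions without a KO_Sti peak held a peak in at least 1 WT_Ctl library, 149 held a peak in at least 1 KO_Ctl library, and 103 had neither.

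By number of regions, Bach2, a transcriptional repressor that holds lymphocytes in a resting state, lost the most. It had 3 lost regions of 23, and 20, 20 and 21 of the 23 were called in WT_Sti libraries against 16, 16 and 18 in KO_Sti libraries. The 3 lost regions are part of these counts and separate the groups by definition, so the counts are no further evidence. Another 35 genes lost 2 each, and the 9 of them with the fewest regions were Erich6b, Plscr5, Rin2, Ptgfrn, Kctd14, Lrrc27, Tbc1d19, Car2 and Myh7b. Gained regions clustered on chromosome 5, where the predicted genes Gm10354, Gm17019, Gm21190 and Gm21149 and the gene Speer4c took 18 gained regions between positions 14959357 and 15691197. These are near-identical copies whose reads can be split or misplaced between them, so their counts are uncertain, and WT_Ctl replicate 1 also called regions there. Speer4c was among 21 genes that gained 2 each, and others of these with the fewest regions, ties taken by name, were 1700024J04Rik, Vmn1r223, Mras, Ms4a8a and Arhgef6.

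Within 19 lists of immune, marker and ubiquitous genes, 321 genes with 1574 regions, 16 regions (1.02%) were gained and 21 (1.33%) lost, beside 1.03% and 1.71% of all regions. Gained ones lay at cytokine receptor and JAK-STAT genes (3 of 154 regions, 1.95%: Il12rb2, 19134 bp upstream, Stat4 and Stat5b), at NF-kB and MyD88 genes (2 of 123, 1.63%, both Irak3), at transcription factors (Batf, Id3 and Zeb2, with 2 at Zeb2), at growth and survival genes (Bcl2, Cdk6 and Ccne1), and at Ptgs2, Ccl3, Gbp3 and Srgn. The Ptgs2 promoter region had weaker peaks in WT_Sti, at folds of 5.50, 4.52 and 6.53, and folds of 6.78, 5.83 and 11.8 in KO_Sti. Folds belong to their own library, so they order peaks within a list only. Of the 21 lost regions, 8 had no KO_Sti peak: those at Prdm1, the transcription factor Blimp-1, Gzmb, the death protease granzyme B (9205 bp upstream), Tox2, Ets1 and Bach2, all transcription factors, Itgb2, the integrin beta-2 chain, Klra7, a Ly49 receptor, and Ifng (36173 bp upstream). The others lay at Bach1, Bach2 (2), Itga2, Itgb1, Ebf1, Entpd1, Nt5e, Cd274, Slc2a1, Myc, Cxcr3 and Runx1. Called regions summed over the list genes to 1242 ± 20.3 in WT_Sti and 1202 ± 22.5 in KO_Sti libraries (SD, n = 3), a difference of −40.3 or −3.25%. Over all regions the called number was 33921 ± 280.0 and 32378 ± 1251, a difference of −4.55%.

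Ifng, which encodes interferon gamma, had 16 regions, of which 16, 15 and 16 were called in WT_Sti and 13, 14 and 15 in KO_Sti libraries. These counts include 1 lost region, which separates the groups by definition. The lost region, chr10:118404455-118404872, had folds of 11.5, 10.2 and 9.51 in WT_Sti and was called in 1 WT_Ctl and 2 KO_Ctl libraries. The Ifng promoter was among the strongest regions of every library, at percentile 98.3, 96.2 and 97.2 in WT_Sti and 97.1, 96.0 and 94.3 in KO_Sti. Of the 13 Ifng regions that could be ranked, none passed the test described next with all 6 libraries.

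To measure graded differences, the 28583 regions with a deposited peak in all 6 stimulated lists were ranked within each library by deposited fold, turned into normal scores and compared with limma. A difference of 1 is 1 standard deviation of the normal scores of all regions. It spans fewer percentiles near the ends of the ranking than in its middle. A percentile of 100 is the strongest region of a library. With Benjamini-Hochberg adjustment at 0.05, 49 regions (0.171%) ranked higher in KO_Sti and 9 (0.0315%) lower, and 3795 had an unadjusted p of at most 0.05. The lowest adjusted p was 0.0332. A region had to hold a peak in the short list of KO_Sti replicate 1 to be ranked at all.

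Irak3 was called at 2 regions. The region over its start, chr10:120200863-120203160, stood at percentile 19.7, 14.9 and 19.3 in WT_Sti and at 83.1, 68.8 and 66.7 in KO_Sti. The difference was 1.55 ± 0.169 (SE; adjusted p = 0.0332, limma, and 9.09e-05 to 0.179 over the alternatives). The gene-body region chr10:120187933-120190072 stood at 8.64, 4.18 and 3.75 against 42.7, 34.9 and 48.3, a difference of 1.42 ± 0.199 (adjusted p = 0.0442, limma, and 0.00127 to 0.278 over the alternatives). The genotypes did not overlap at either region, which follows in part from their selection by the test on these same libraries. In control libraries the same 2 regions were higher in KO by 0.78 and 1.76.

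The other listed genes among the higher calls were Il6, Tigit, Ikzf2 and Bcl2. The region over the start of Il6, an inflammatory cytokine, chr5:30012343-30015479, stood at percentile 40.0, 34.2 and 33.3 in WT_Sti and at 79.5, 71.9 and 71.4 in KO_Sti, a difference of 1.02 ± 0.127 (adjusted p = 0.0393, limma, and 0.000198 to 0.245 over the alternatives). A region in Tigit, an inhibitory receptor of NK and T cells, stood at 17.3, 5.84 and 8.84 against 60.3, 62.2 and 56.9, a difference of 1.54 ± 0.187. In Ikzf2, the transcription factor Helios, the values were 1.97, 10.8 and 8.84 against 48.6, 56.8 and 59.7, a difference of 1.68 ± 0.237. The groups did not overlap at any of these regions, which again follows in part from their selection by the test. In Bcl2, which blocks cell death, the region chr1:106560838-106562500 stood at 34.3, 34.2 and 43.5 against 85.8, 80.5 and 76.5, a difference of 1.21 ± 0.135.

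Among genes outside the lists, the smallest adjusted p of 0.0332 was shared by regions in Ntng2, Noxa1, Ece1, Syk, Prr5l and Ncor1 and by regions far from genes on chromosomes 1 and 7. In Syk, a kinase downstream of activating receptors, the percentiles were 2.91, 2.72 and 1.5 in WT_Sti and 40.5, 38.1 and 44.0 in KO_Sti. In Prr5l, which encodes a partner of mTORC2, they were 11.7, 7.6 and 13.3 against 84.3, 68.0 and 62.3. In Ntng2, a netrin family gene, they were 2.41, 1.24 and 2.12 against 46.8, 48.0 and 46.7. These regions were near the bottom of the WT_Sti ranking and in its middle or above in KO_Sti. Over the 49 higher regions the median WT_Sti percentile was 6.49.

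The 9 lower regions came from the strong end, with a median WT_Sti percentile of 82.9. Upstream of Wfs1, which encodes the endoplasmic reticulum protein wolframin, the percentiles were 75.2, 80.1 and 82.8 in WT_Sti and 50.4, 47.2 and 46.2 in KO_Sti, a difference of −0.88 ± 0.115 (adjusted p = 0.0398, limma). Downstream of Sema7a, a membrane-anchored semaphorin, they were 94.9, 95.8 and 97.4 against 85.8, 83.0 and 81.0, a difference of −0.80 ± 0.119 (adjusted p = 0.0495, limma). The others included regions in Antxr1 and Cacnb4 and regions over 50 kb from any gene. No listed gene was among them. All 58 regions kept their direction in every alternative that ranked them, though not every alternative ranked all 58 and most reused the same libraries. Still, with any library other than KO_Sti replicate 1 left out, 0 regions passed, with 2037 to 4744 at an unadjusted p of at most 0.05 (limma).

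**Figure D3:**
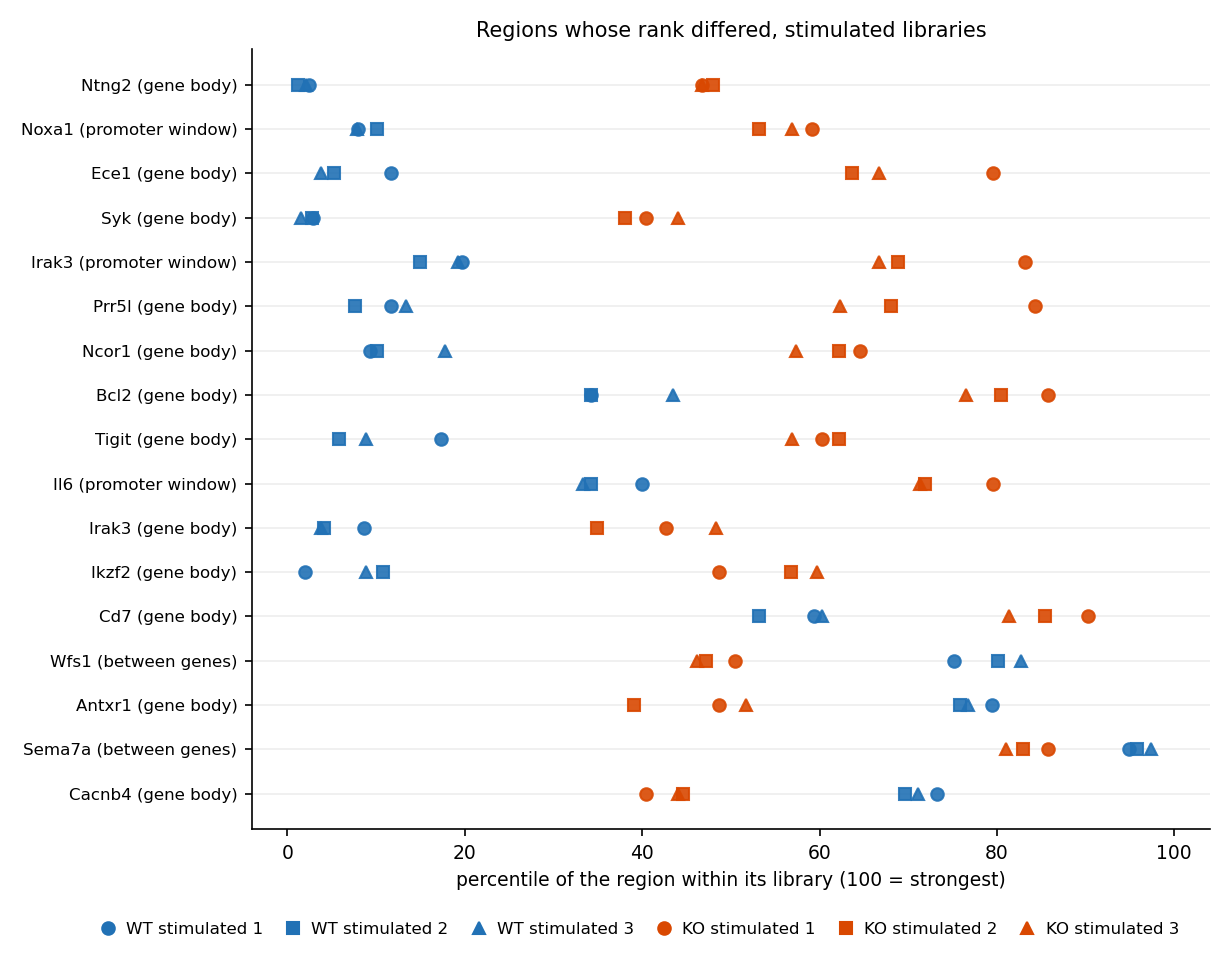
Percentile of each named region within its library (100 is the strongest), with WT_Sti and KO_Sti libraries in different colours and symbols by replicate. The regions were called by the test on these same libraries, so the separation of WT_Sti and KO_Sti libraries follows in part from that selection. The Irak3 start, for example, lies at 14.9 to 19.7 in WT_Sti and 66.7 to 83.1 in KO_Sti.

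Without KO_Sti replicate 1, limma called 931 higher regions (3.26%) and 1515 lower regions (5.3%), which included all 58. Higher regions touched a promoter window in 17.9% of cases and lower regions in 7.0%, against 29.1% of all ranked regions.

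The same regions had mostly the same direction in control cells. Of the higher regions, 615 had a peak in all 12 libraries. Of these 615, 564 (91.7%) were higher in KO_Ctl than in WT_Ctl, against 50.8% of all 24690 regions with a peak in all 12. All 3 KO_Ctl libraries stood above all 3 WT_Ctl libraries at 310 of the 615 (50.4%, against 11.5% of the 24690). Of the lower regions, 1082 of 1245 (86.9%, against 49.2%) were lower in KO_Ctl, and 596 (47.9%, against 12.9%) were lower without overlap. Stimulated and control libraries are separate samples, so these control values did not enter the calls.

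**Figure D4:**
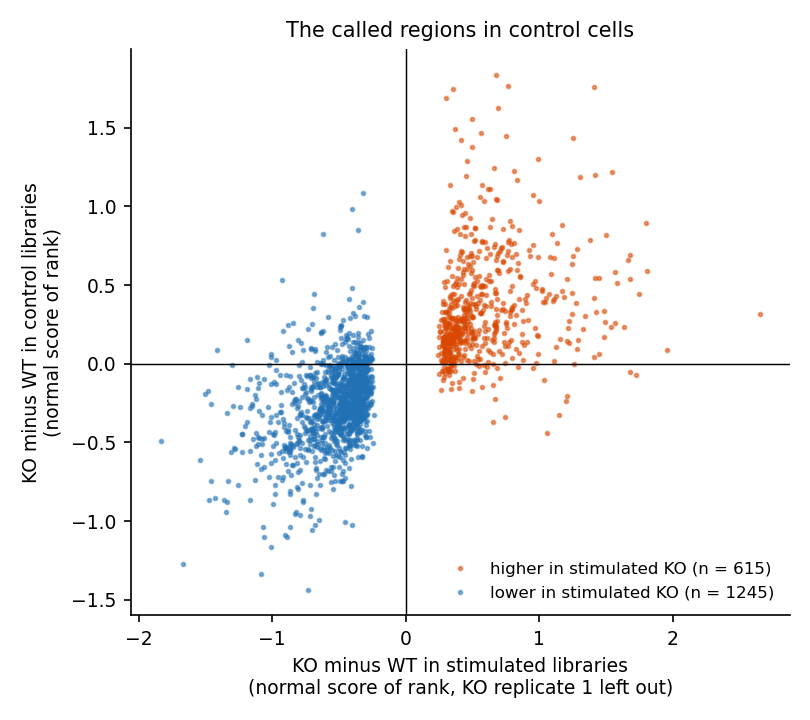
Each point is a region called without KO_Sti replicate 1 that has a peak in all 12 libraries, with the KO minus WT difference in normal score in stimulated libraries across and in control libraries upward. Of the 615 higher regions 564 lie above 0, and of the 1245 lower regions 1082 lie below 0.

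A test of whether the genotype difference itself changed with stimulation called 0 of 24690 regions with all 12 libraries (0%, limma, lowest adjusted p 0.0527), while 2078 had an unadjusted p of at most 0.05. Without KO_Sti replicate 1 it called 19, 3 with a positive (0.0122%) and 16 with a negative (0.0648%) change from control to stimulated cells. At 15 of the 19 the mean score was higher in KO_Ctl than in WT_Ctl. In Taok3, a stress-activated kinase gene, percentiles among the 24690 regions were 2.16, 2.57 and 2.91 in WT_Ctl and 37.5, 39.1 and 42.1 in KO_Ctl, but 86.3, 81.9 and 81.3 in WT_Sti and 72.0, 87.4 and 92.2 in KO_Sti. The genotypes thus stood apart in control cells and overlapped after stimulation. Ptpn6, which encodes the phosphatase SHP-1 that carries signals of inhibitory NK receptors, had another form, with the genotypes apart in both treatments and in opposite directions. A region in it stood at 79.5, 76.0 and 75.6 in WT_Ctl and 69.7, 70.6 and 69.0 in KO_Ctl, and at 21.7, 26.9 and 26.7 in WT_Sti and 60.0, 50.9 and 50.2 in KO_Sti. Both genes were named after their values were seen, and their adjusted p with all 12 libraries was 0.0527.

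The gene lists are described next from the fit without KO_Sti replicate 1, since with all 6 libraries the listed genes had only the 6 higher calls given above and 0 lower calls. At listed genes, 136 of 1087 ranked regions were called, 46 higher (4.23%) and 90 lower (8.28%), at 90 genes. With all 6 libraries 134 of the 136 kept their sign, their adjusted p ran from 0.0332 to 0.993 (limma), and 105 showed no overlap between the 3 WT_Sti and 3 KO_Sti libraries. The 136 were called from these same libraries less KO_Sti replicate 1, so their signs and separation follow in part from that selection. The share without overlap over all ranked regions is not given here. The single regions named below were chosen after their values were seen.

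Genes that carry the cytokine signal were mixed. At cytokine receptor and JAK-STAT genes 6 of 107 regions were higher and 10 lower (median difference −0.02, against 0.01 over all regions). Regions in Il12rb2, a chain of the IL-12 receptor (6.52, 6.41 and 8.35 against 35.5, 25.5 and 25.6, difference 0.81 ± 0.199), and in Il18r1, the IL-18 receptor, were higher, while another at the Il18r1 start and regions at Stat4 (2), Jak1 (2), Il2ra (2), Il2rb and Il21r were lower. Cish, an inhibitor of cytokine receptor signalling, Ifngr2 and Stat5b each had a higher region, and Jak2 had 1 of each kind. At NF-kB and MyD88 genes 6 of 89 were higher and 4 lower (median difference 0.02). The higher ones were 4 of the 5 ranked Irak3 regions and 1 each in Nfkb1 and Tnfaip3, which encodes the NF-kB inhibitor A20. The lower ones were 2 at Nfkb1 and 1 each at Map3k8 and Irak2, an activating IRAK family member, where the percentiles were 26.4, 19.6 and 23.9 against 12.2, 2.09 and 6.01 (difference −1.06 ± 0.217).

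At cytotoxic granule genes 1 of 43 regions was higher (2.33%), at Ctsc, and 7 were lower (16.3%, median difference −0.15), beside 3.26% and 5.3% of all ranked regions, where lower calls also outnumbered higher ones. The promoter region of Gzma, which encodes granzyme A, stood at 63.2, 63.3 and 55.1 in WT_Sti and at 4.90, 34.9 and 19.4 in KO_Sti, a difference of −0.89 ± 0.137 (−1.24 with all 6 libraries, adjusted p = 0.147, limma). The promoter of Prf1, the pore-forming protein perforin, stood at 96.7, 95.2 and 94.3 against 93.3, 91.2 and 86.2, a difference of −0.47 ± 0.0939. Gzmb (2), Fasl (2) and Serpinb9 had the other lower regions. At both promoters the KO_Sti libraries stood below all WT_Sti libraries, which follows in part from their selection.

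At cytokine and chemokine genes 4 of 60 regions were higher, at Il6, Il2, Il10 and Csf2, and 8 lower (median difference −0.06). The lower ones were at the chemokine genes Ccl3 (2), Ccl4 (2), Ccl5 and Xcl1, and at Ifng and Il10. The Ifng region 22366 bp downstream, chr10:118468261-118469888, stood at 59.1, 56.9 and 62.4 in WT_Sti and at 52.1, 36.0 and 26.4 in KO_Sti, a difference of −0.73 ± 0.116 (−0.55 with all 6 libraries, adjusted p = 0.247, limma). Csf2, which encodes GM-CSF, had a region at 49.8, 53.2 and 54.2 against 86.1, 70.5 and 67.4 (difference 0.43 ± 0.0934).

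Transcription factor genes had calls in both directions. Of 214 regions at NK transcription factors, 8 were higher and 21 lower, and of 64 at AP-1 and BATF genes, 2 were higher and 8 lower (median differences −0.06 and −0.07). Lower regions lay at Runx2 (4), Irf8 (3), Bach2 (3), Tox2 (2), Ets1 (2) and Nfil3 (2), and 1 each at Tbx21, Tcf7, Prdm1, Myb, Runx1, Runx3, Irf1, Zbtb32, Batf, Batf3, Fos, Fosb and Atf3. The strong region in Batf stood at 99.3, 99.1 and 99.7 against 98.6, 96.8 and 98.8 (difference −0.45 ± 0.12). Higher ones were at Ikzf2, Id3 (2), Irf2, Ets1, Nfil3, Runx1, Bach2, Maf and Pou2f2. Pou2f2, which encodes the octamer-binding factor Oct-2, had a region at 52.4, 44.3 and 39.6 in WT_Sti and at 19.6, 70.1 and 61.0 in KO_Sti. There the left-out replicate lay on the other side, and the difference of 0.52 ± 0.117 was 0.10 with all 6 libraries (adjusted p = 0.905, limma). None of the 5 ranked regions of Nfkbiz, which encodes the NF-kB cofactor IkB-zeta, was called.

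NK identity genes had 0 higher and 5 lower regions of 45 (11.1%, median difference −0.08), at Gzma, Prf1, Il2rb, Tbx21 and Xcl1, all of which are also on other lists. Homing and integrin genes had 1 higher region of 68, at Ccr7, and 11 lower (16.2%, median difference −0.07). Lower ones included those at Itgax (3) and Itgam (2), the chains of CD11c and CD11b, Itga1, Itgb1, Itgb2, Spn and Ccr2, a chemokine receptor, where the percentiles were 61.3, 62.8 and 56.8 against 40.5, 38.1 and 41.1 (difference −0.53 ± 0.103). NK receptor genes had 0 higher and 6 lower of 66 (median difference −0.11), at Slamf7 (2), Klra7 (2), Klrb1f and Crtam. In Slamf7, an activating SLAM receptor, a region stood at 87.9, 91.9 and 88.1 against 72.1, 71.2 and 77.1 (difference −0.60 ± 0.0888). Myeloid marker genes had 3 lower regions of 14, all at Itgax, which NK cells also express.

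Checkpoint and costimulation genes had 5 higher regions of 65, at Tigit (2), Ctla4 (2) and Pdcd1, and 6 lower, at Icos (2), Entpd1 (2), Cd28 and Pdcd1. Of 86 regions at RNA decay genes and reported Regnase-1 targets, 6 were higher and 3 lower (median difference 0.00). The higher ones were at Il6, Il2, Ptgs2, Ctla4 (2) and Pou2f2, and the lower ones at Icos (2) and Ifng. Il6, Il2, Ctla4, Icos, Ifng and Pou2f2 were on other lists too. The Ptgs2 promoter region stood at 3.42, 1.56 and 3.12 against 35.5, 19.6 and 29.6 (difference 1.25 ± 0.250, and 1.36 with all 6 libraries, adjusted p = 0.0707, limma).

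Growth, survival and metabolism genes had 7 higher and 5 lower regions of 132 (median difference 0.01). Besides Bcl2 they included Cdk6, a kinase of cell cycle entry, where a region stood at 45.6, 46.0 and 53.9 in WT_Sti and 89.6, 75.7 and 76.7 in KO_Sti (difference 0.75 ± 0.0972, and 0.93 with all 6 libraries, adjusted p = 0.0825, limma). Hif1a, a hypoxia-response factor, had 2 higher regions, and Hk2, a hexokinase, 1. Other regions of Bcl2 and Cdk6 were lower (−0.51 ± 0.129 and −0.42 ± 0.107), as were regions at Bcl2l1, Bcl2l11 and Rptor. TGF-beta genes had 1 higher (Skil) and 1 lower (Tgfbr2) of 49, and interferon-stimulated genes 0 and 3 of 22. B cell marker genes had 2 higher of 7 regions (Blk and Pax5), T cell marker genes 2 of 15 (Cd3d and Cd6), erythroid marker genes 0 of 5 and ubiquitous genes 0 of 28. The B and T cell marker values moved with the genotype at these 4 regions, and their part in the other results was not tested.

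**Figure D5:**
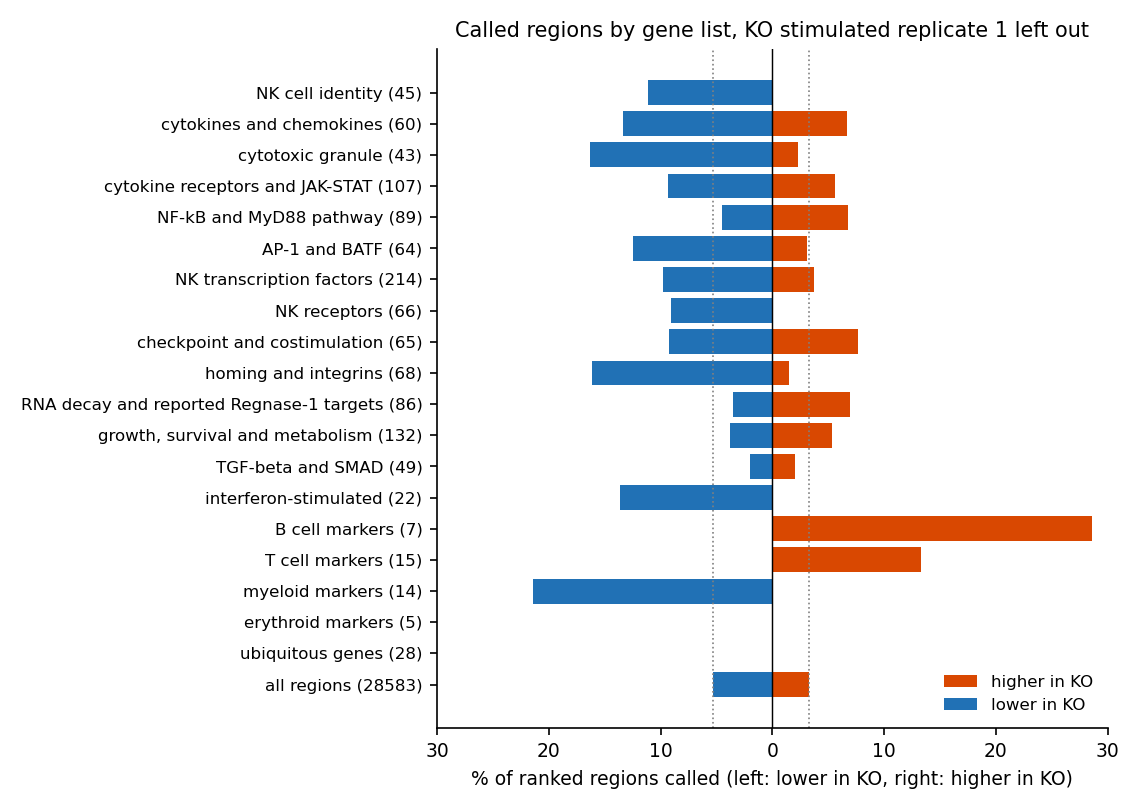
Share of the ranked regions of each gene list called lower (left, blue) or higher (right, orange) in KO_Sti, in percent, without KO_Sti replicate 1, beside all regions (5.3% lower, 3.26% higher). Cytotoxic granule, homing and integrin, and myeloid marker genes have 16.3%, 16.2% and 21.4% lower, and lists with few regions have wide counting error. The lower myeloid marker regions are 3 at Itgax, which are also counted in the homing and integrin list.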

How the data were processed

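ATAC-seq libraries of mouse spleen NK cells were grouped and numbered from their titles (4 groups of 3). The submitters' processing notes name build mm10 and these tools, with no role or setting: MACS2 2.1.1.20160309, Bowtie2 2.3.4.1, deepTools 3.4.2, SAMtools 1.15.1, cutadapt 4.1 and FastQC 0.11.9. The authors deposited 1 peak list per library, so peaks were called per library. Each list holds deposited fold enrichment (a ratio to the library's own background), −log10 p, −log10 q, a display score and a summit offset. The score was not used. The deposited values served here only to order and select peaks inside a list. Peaks off chromosomes 1 to 19, X and Y were left out.

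Summits that share an interval were counted as 1 interval, taking the strongest summit's values. The strongest by −log10 q, then −log10 p and position, were kept, as many per library as the shortest list (KO_Sti replicate 1) holds, and merged at 1 bp overlap. Regions called in fewer than 2 libraries were dropped. Deposited fold and −log10 q ordered intervals identically in all 12 libraries. Each region took the nearest protein-coding gene within 50 kb (GRCm38.p6). Ranks of regions with a peak in all 6 stimulated lists were converted to normal scores and compared with limma 3.58.1 (R 4.3.3, empirical Bayes with trend, Benjamini-Hochberg at 0.05), tested on simulated data. Shares have Wilson 95% intervals. Other steps used Python 3.11.15, numpy 2.4.6, pandas 2.3.3, scipy 1.17.1 and matplotlib 3.10.9. Total read depth is unknown, and the peak lists limit precision to the order of peaks within a library.

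The comparison, its members, the gene lists and the tests were chosen with earlier results of these data known. The text names Zc3h12a, Ifng, Pou2f2 and Nfkbiz, the 10 genes with most gained and most lost regions, the 10 strongest gained and lost regions (by worst rank) without a peak in the other group, listed genes with a lost or gained region, the 10 smallest adjusted p in each direction and the listed genes among the calls. Regions named from the fit without KO_Sti replicate 1 were added after their values were seen. A few genes that these rules select are not reported here. Alternatives were other list lengths, all peaks, a −log10 q minimum of 10, 50% cover, 20 kb, regions of at most 2000 bp, no trend, a replicate block, other region sets and leaving out each library.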

Additional observations from a re-analysis of the deposited data

How the results depend on the processing

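The direction of the 58 called regions held in every alternative that ranked them, most of which reused the same libraries. Counts depended on the settings, and the cause was not tested. Gained and lost regions numbered 78 and 2816 with all deposited peaks, 228 and 316 with 50% as many intervals kept per library, and 14 and 3282 at a −log10 q of at least 10. Lost regions numbered 1597 when a call had to cover 50% of the region. Only 4 of the 463 gained and 1 of the 771 lost regions overlapped the sets at that length, yet the control states kept their order there: gained regions were called in 21.5% to 26.3% in WT_Ctl and 36.0% to 38.2% in KO_Ctl libraries. Leaving out 1 library gave 555 to 1084 gained and 998 to 1964 lost regions, with the upper values without KO_Sti replicate 3, and 790 and 753 gained without KO_Sti replicates 1 and 2.

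Regions ranked higher and lower numbered 0 and 0 among regions kept in all 6 reduced lists (3175 at an unadjusted p of at most 0.05), and 5 were lower without the trend. Leaving out 1 library gave 0 to 931 higher and 0 to 1515 lower. Chosen after seeing the data, regions with a peak in all 6 control libraries gave 0 and 0 (4601 unadjusted), and 470 and 998 without KO_Sti replicate 1, and regions with a peak in the other 5 libraries gave 1014 and 1660. The interaction test, whose alternatives were also added later, gave 0 to 19 calls with 1 library left out: 19 without KO_Sti replicate 1, 2 without WT_Ctl replicate 3, and 1 each without WT_Ctl replicate 1 and KO_Sti replicate 3. Called regions over the listed genes differed by −18.0 at the 50% length, by −387 with all peaks and by −205 at 50% cover, and by −52.0 to −29.3 with 1 library left out.

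With the replicate number as a block, 22 regions were higher and 0 lower (3426 unadjusted), the interaction had 0 calls, and the list length difference of −14251 had an exact permutation p of 0.25, the smallest that the paired test allows. Deviations from the group means correlated between same-numbered libraries at r = 0.0085, 0.015 and −0.011, so no shared deviation by number was seen. These values cannot show whether same-numbered libraries were prepared together, and the labels do not say. Depth is unknown, and a weaker peak can be missed in the short KO_Sti lists.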

Other observations

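Outside the gene lists, the fit without KO_Sti replicate 1 gave several genes with more than 1 called region, all named after their values were seen. Higher in KO_Sti were 7 of 18 ranked regions of Sfi1, 4 of 8 of Ppfibp2, 3 of 3 of Zbtb18, a zinc finger repressor, 3 of 3 of Ndrg1 and 3 of 9 of Tnfsf4, which encodes OX40 ligand. Lower were 5 of 9 of Armc9, 5 of 10 of Chst11, a chondroitin sulfotransferase, 5 of 12 of Ugcg, the glucosylceramide synthase, 4 of 5 of Ppp3cc, a catalytic subunit of calcineurin, 4 of 6 of Scimp, 4 of 12 of Sik3 and 4 of 9 of Cd82, a tetraspanin. Among all ranked regions 3.26% were higher and 5.3% lower.

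The smallest p of the lower regions in that fit belonged to Edem3, which takes part in endoplasmic reticulum degradation of glycoproteins. Its region stood at percentile 99.9, 99.9 and 99.9 in WT_Sti and at 44.8, 95.4 and 98.0 in KO_Sti, with a difference of −1.17 ± 0.105 (SE) without KO_Sti replicate 1. Pde2a, a cyclic nucleotide phosphodiesterase, stood at 95.9, 92.9 and 92.5 in WT_Sti and at 84.7, 72.9 and 74.95 in KO_Sti, a difference of −0.91 ± 0.0895. In Prkch, which encodes protein kinase C eta, the values were 86.1, 83.9 and 84.9 against 83.9, 61.2 and 65.2, and the KO minus WT difference in control libraries was −1.06. In Cd7, a lymphocyte surface receptor, a region stood at 59.4, 53.2 and 60.3 in WT_Sti and at 90.3, 85.4 and 81.4 in KO_Sti, and the control difference was 0.91. The Prkch values of WT_Sti replicate 2 and KO_Sti replicate 1 were nearly equal. At the other 3 genes all KO_Sti libraries were on 1 side of all WT_Sti libraries, which follows in part from their selection.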
